A study of Mus musculus with 6 samples.

Results

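The genes described here are those of the mouse major histocompatibility complex (MHC) and of the machinery that loads its molecules with peptide. They were taken from the gene symbols of the array as every symbol that begins with H2- together with B2m, Tap1, Tap2, Tapbp, Ciita, C2ta and Cd74, which gave 82 of 45281 probes and 49 of 31508 symbols. Of the 49, 36 belonged to class I, 10 to class II and 3 to neither class, namely *H2-Bf* (complement factor B), *H2-Ke6* (a hydroxysteroid dehydrogenase) and *H2-gs17*. No probe carried the symbol Cd74, but 3 probes carried its older name, *Ii*, for the invariant chain, and their values are given apart from the 49. In the RefSeq gene table of GRCm38.p6, 42 symbols were current, 5 were older names and 2 (*H2-L* and *H2-T9*) were not matched. Among the older names, C2ta is now *Ciita* and *H2-T17* is now *H2-T22*, a gene that the array therefore lists under both symbols, and *H2-Tw3* is likewise now *H2-T3*. Counts of member genes below are counts of symbols.

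Bone tubes were made from the femur and tibia of C57BL6 mice, 3 months old by the labels and 2 to 3 months by the methods. The ends, the marrow and, through collagenase and trypsin, the surface cells were removed. By the methods the tubes then held mostly osteocytes inside their mineralized matrix, but markers of other cells were also above background, as given below. The control group (Ctr, 3 arrays) was cultured without hormone, and the PTH group (Pth, 3 arrays) received the 1-34 fragment of parathyroid hormone, Pth 1-34, at 250 nM for 24 hours. Each RNA preparation pooled bones of 4 to 5 mice, and the labels do not say that the 3 preparations of a group were separate cultures, so the p-values measure the spread between preparations, which may be technical. The question was how PTH changed gene expression in osteocytes within bone.

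MHC class I molecules are made by nearly all nucleated cells. A heavy chain (*H2-K1* and *H2-D1* in this strain) pairs with beta-2 microglobulin (*B2m*), and the transporter formed by *Tap1* and *Tap2*, with its bridging protein tapasin (*Tapbp*), supplies it with peptides cut in the cytosol for display to CD8 T cells. Class II molecules (*H2-Aa* with *H2-Ab1*, *H2-Ea* with *H2-Eb1*) are made mainly by macrophages, dendritic cells and B lymphocytes. They travel with the invariant chain to the endosome, where *H2-DMa* with *H2-DMb1* or *H2-DMb2* exchanges its remnant for a peptide, and *Ciita* is the master activator of the whole set. In bone, class II is known from macrophages, from marrow lymphocytes and from osteoclast precursors.

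Of the 45 distinct RefSeq genes behind these symbols, 43 lie on chromosome 17, while *B2m* lies on chromosome 2 (122147687 to 122153082) and *Ciita* on chromosome 16. The promoters of class I and class II share an upstream element, in which a TGACG-like box precedes an inverted CCAAT box, and class I promoters may also carry sites for NF-kappaB and for interferon regulatory factors. Because the results below set one class against the other, the 250 bases before the RefSeq start site are shown for 2 class II genes and 2 class I genes, 5′ to 3′ on the gene's strand. Capitals mark every match, on either strand, to the CCAAT box, to the core TGACG of the cAMP response element, to the interferon response motif GAAANNGAA and to the NF-kappaB motif GGGATTCCC. The windows are chr17:34287824-34288073 (minus strand) for *H2-Aa*, chr17:34305617-34305866 (plus strand) for *H2-Eb1*, chr2:122147437-122147686 (plus strand) for *B2m* and chr17:34000334-34000583 (minus strand) for the first of the listed starts of *H2-K1*.
H2-Aa: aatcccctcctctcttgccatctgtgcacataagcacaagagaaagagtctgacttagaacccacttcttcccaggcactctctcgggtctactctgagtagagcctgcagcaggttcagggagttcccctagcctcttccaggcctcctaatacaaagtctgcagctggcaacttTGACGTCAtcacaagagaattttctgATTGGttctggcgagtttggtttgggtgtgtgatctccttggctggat
H2-Eb1: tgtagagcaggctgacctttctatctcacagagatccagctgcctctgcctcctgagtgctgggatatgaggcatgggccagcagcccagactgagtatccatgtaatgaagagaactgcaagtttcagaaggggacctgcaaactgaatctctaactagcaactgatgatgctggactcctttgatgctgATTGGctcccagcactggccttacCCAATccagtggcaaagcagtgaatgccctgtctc
B2m: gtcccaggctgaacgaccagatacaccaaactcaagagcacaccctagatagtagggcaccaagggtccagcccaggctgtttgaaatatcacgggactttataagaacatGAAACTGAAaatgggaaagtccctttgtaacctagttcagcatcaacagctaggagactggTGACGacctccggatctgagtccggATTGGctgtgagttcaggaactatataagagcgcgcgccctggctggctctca
H2-K1: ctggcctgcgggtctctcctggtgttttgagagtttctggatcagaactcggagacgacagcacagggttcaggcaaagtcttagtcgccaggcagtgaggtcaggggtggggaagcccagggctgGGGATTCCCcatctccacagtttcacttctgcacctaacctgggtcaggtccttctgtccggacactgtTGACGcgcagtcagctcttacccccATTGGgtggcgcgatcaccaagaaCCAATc

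In *H2-Aa* the run of capitals that begins 74 bases before the start is TGACGTCA, the palindrome known as the cAMP response element, which holds TGACG on both strands, and the inverted CCAAT box begins 48 bases before the start. *B2m* had the same order, with TGACG at 78 and the inverted CCAAT box at 53 bases, and *H2-K1* had it at 55 and 30 bases behind the NF-kappaB motif at 124 bases. *H2-Eb1* held CCAAT boxes at 59 and 35 bases and no TGACG. Over the windows of 300 bases (250 before to 50 after the start), which were found for 23 class I genes and 7 class II genes, a CCAAT box on either strand was present in 21 and in 7, against 37.4% of all 32544 promoters. Here and below, a gene counted when the window of any of its listed starts held the motif. The percentages are of single windows, so a gene with several starts could match more easily. TGACG was present in 12 of the class I genes and in *H2-Aa* alone among class II genes, against 20.9% of all promoters, and TGACGTCA in *H2-Aa* alone, against 1.8%. The interferon response motif was searched only as GAAANNGAA, so other forms of it were not counted. In this form it was present in *B2m*, *H2-T22* and *H2-T23* (8.53% of all promoters). The NF-kappaB motif was present in *H2-D1*, *H2-K1*, *H2-Q6* and *H2-Q7* (0.353%). Neither was present in a class II gene. These matches describe letters in a window and do not show that a factor bound there.

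A probe was taken to be above background at a detection p under 0.05, which compares it with the negative control beads, and was tested when this held on at least 3 of the 6 arrays. Between 34.2% and 38.4% of all probes were above background on an array, and pairs of arrays correlated at r between 0.975 and 0.985 over probes. Values are normalized signals on the log2 scale, and a change is the PTH mean minus the control mean. The brightest probe stood for its gene. A gene counted as called when limma, fitted over all probes tested, gave it an adjusted p under 0.05 and a fold change of at least 1.5. By this rule 207 of 11972 genes were called, of which 39.6% were higher with PTH (60.2% under median scaling, which moved the median of all genes to 0.12). Of the markers of the labelled cell type, *Dmp1*, *Mepe*, *Sost* and *Phex* were above background on all control arrays, while *Fgf23* was above it on none. Some markers of neutrophils, macrophages and osteoclasts were also above it on all control arrays, among them *S100a8* (14.64 in controls), *C1qb* (11.08) and *Ctsk* (13.05). Others were above it on no array, namely *Mmp8* and *Elane* of neutrophils, *Cd163* and *Msr1* of macrophages and *Calcr* and *Atp6v0d2* of osteoclasts. The osteoclast marker *Itgb3* was above it on 1 control array alone.

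Of the 49 member genes, 29 could be tested (21 class I, 6 class II, 2 neither), through 41 probes. None was called by limma, where 1.73% of all genes tested were called, and none of the 41 probes was called, where 1.61% of all probes were. At an unadjusted limma p under 0.05 there were 5 member genes, 2 higher with PTH (*H2-M2* and *H2-T10*) and 3 lower (*Tapbp*, *H2-DMa* and *H2-Eb1*), which is 5 of 29 beside 14.9% of all genes. The methods' t-test at an unadjusted p under 0.05 and a fold of at least 1.5 gave *H2-M2* and *Tapbp*, and none after Benjamini-Hochberg adjustment. The lowest adjusted p of any member was 0.114, for *H2-M2*. The 95% interval of the change stayed within a fold of 1.5 in both directions for 17 of the 29 genes and reached it for 12. The median standard error of the member genes was 0.16, as was that of all genes, and the smallest change among called genes was 0.61 in absolute log2 value.

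Class II genes were lower with PTH on average. All 6 tested class II genes had a lower PTH mean (5 of 6 under median scaling and without Pth replicate 1, where *H2-Aa* changed sign), beside 49.2% of all genes. In 4 of them the groups did not overlap and PTH was the lower one, beside 10.8% of all genes. Their median change was -0.31, with a range from -0.45 to -0.016, where the median of all genes was 0.0054. None of these changes passed the test. The lowest adjusted p in limma was 0.255, and 2 of 6 genes had an unadjusted p under 0.05, beside 14.9% of all genes. Of the 10 class II probes tested, 9 had a lower PTH mean, beside 49.4% of all probes. These probes read the same 6 genes on the same arrays, so they are not independent. Because whole bone was extracted, fewer class II cells and less class II RNA per cell cannot be told apart.

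**Figure D1:**
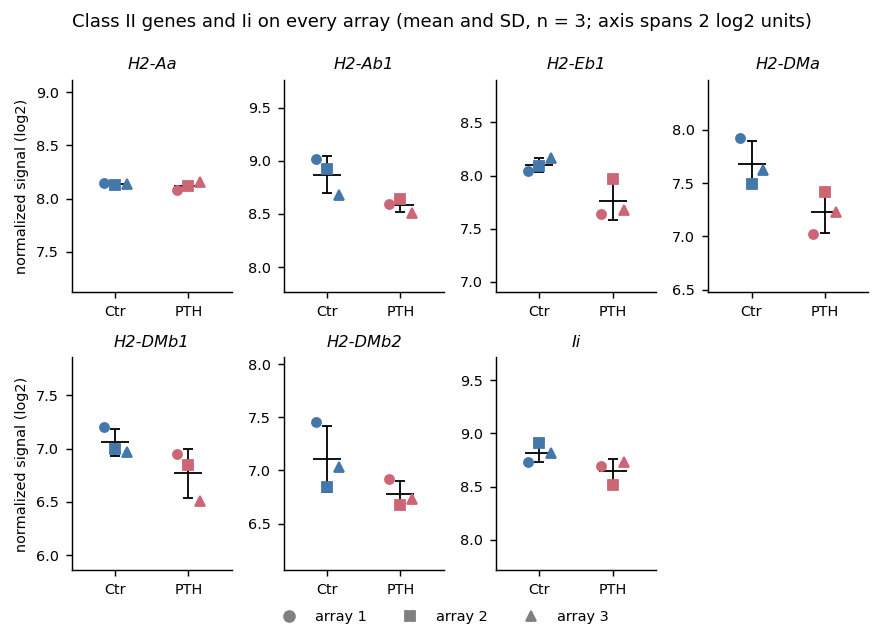
Normalized log2 signal of the 6 tested class II genes and of the invariant chain (*Ii*) on every array, by the brightest probe of each. Blue symbols are control arrays, red symbols PTH arrays, the symbol shape gives the array number, and black bars give the mean and SD of 3 arrays. *H2-Aa* lay between 8.08 and 8.15 on all 6 arrays, whereas all PTH arrays lay below all control arrays for *H2-Ab1*, *H2-Eb1*, *H2-DMa*, *H2-DMb1* and *Ii*. None of these changes passed the adjusted test, and under median scaling *H2-Aa* was higher with PTH.

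The classical class II chains differed from one another in the size of the difference. *H2-Aa*, the alpha chain of the I-A molecule (chr17:34282744-34287823), read 8.15, 8.12 and 8.13 in controls and 8.08, 8.12 and 8.15 with PTH. These groups overlapped fully, and the change was -0.016 with a 95% interval from -0.27 to 0.24, which lies within a fold of 1.5. *H2-Ab1*, the beta chain of the same molecule (chr17:34263227-34269418), read 9.01, 8.92 and 8.68 in controls and 8.59, 8.64 and 8.51 with PTH. The control array numbered 3 was the closest to the PTH arrays, and the groups did not overlap. The change was -0.29 ± 0.13 (SE, n = 3 arrays a group), with a limma unadjusted p of 0.0646 and an adjusted p of 0.379. The other *H2-Ab1* probes did not all share it. One differed by -0.42, from 7.72 ± 0.14 to 7.30 ± 0.11 (SD, n = 3), with a limma adjusted p of 0.198, one by -0.24, and one by 0.059. *H2-Eb1*, the beta chain of the I-E molecule (chr17:34305867-34316674), read 8.05, 8.09 and 8.17 in controls and 7.63, 7.97 and 7.68 with PTH. All PTH arrays were lower, Pth replicate 2 the least so, and the change was -0.34 ± 0.14 (SE) with a limma unadjusted p of 0.0384 and an adjusted p of 0.304. *H2-Ea*, the partner chain, is not expressed in mice of the b haplotype, to which C57BL6 belongs, and RefSeq lists it as a transcribed pseudogene. Its probe was above background on none of the 6 arrays, with normalized signals between 4.29 and 4.55.

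The genes of the DM exchange factor all had lower PTH means. *H2-DMa* had the largest difference of the class II genes, from 7.92, 7.49 and 7.62 in controls to 7.03, 7.42 and 7.23 with PTH. The groups did not overlap, but Ctr replicate 2 and Pth replicate 2 lay close together. The change was -0.45 ± 0.16 (SE), with a limma unadjusted p of 0.0252 and an adjusted p of 0.255, and a second *H2-DMa* probe differed by -0.21 with overlapping groups. *H2-DMb1* read 7.21, 6.998 and 6.97 in controls and 6.95, 6.85 and 6.51 with PTH, a change of -0.29 ± 0.16 (SE) without overlap. The groups of *H2-DMb2* overlapped, with 7.11 ± 0.31 in controls and 6.77 ± 0.13 with PTH (SD, n = 3). *H2-Oa* and *H2-Ob*, which encode the DO molecule that restrains DM in B lymphocytes, were each above background on 1 array, a PTH array. *C2ta*, the class II transactivator, had 2 probes, of which one was above background on 1 PTH array and the other on none. Its brighter probe read 4.77, 4.93 and 4.83 in controls and 5.14, 5.25 and 4.84 with PTH, and it could not be tested.

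The invariant chain, listed as *Ii* and thus outside the symbols chosen, had 2 probes above background on all arrays. The brighter one read 8.73, 8.91 and 8.81 in controls and 8.69, 8.51 and 8.73 with PTH. The groups did not overlap, although Ctr replicate 1 and Pth replicate 3 were nearly equal, and the change was -0.17 ± 0.13 (SE) with a limma adjusted p of 0.600. The other probe read 8.82, 8.89 and 8.88 in controls and 8.53, 8.26 and 8.19 with PTH. Here every PTH array was well below the controls, whose SD was 0.036, and the change was -0.54 ± 0.13 (SE) with a limma unadjusted p of 0.0043 and an adjusted p of 0.117. These 2 probes thus shared their direction and differed in size. The third *Ii* probe was above background on 1 PTH array alone and could not be tested. It read 4.80 ± 0.14 in controls and 4.93 ± 0.34 with PTH (SD, n = 3).

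Class I genes showed no common direction. Of the 21 tested, 13 had a higher and 8 a lower PTH mean, with a median change of 0.068 and a range from -0.76 to 0.86. All PTH arrays lay above all control arrays for 2 genes, *H2-M2* and *H2-T10*, beside 11.1% of all genes, and below them for *Tapbp* and *H2-Q7*, beside 10.8%. Class I genes resemble one another closely in sequence. Probe sequences were not used here, so a signal under one class I symbol may include RNA of another.

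**Figure D2:**
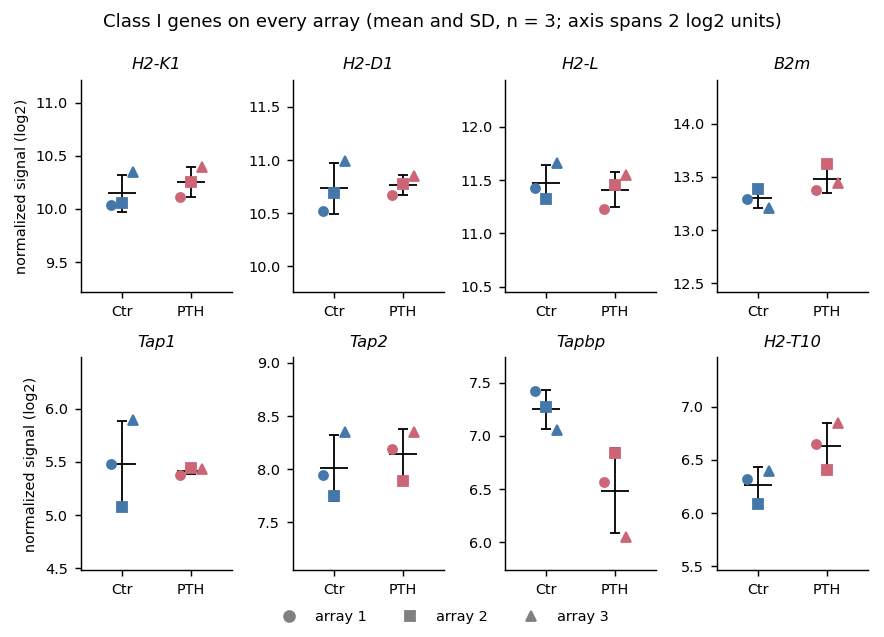
Normalized log2 signal of the class I heavy chains *H2-K1*, *H2-D1* and *H2-L*, the light chain *B2m*, the loading genes *Tap1*, *Tap2* and *Tapbp*, and *H2-T10* on every array, by the brightest probe of each. Blue symbols are control arrays, red symbols PTH arrays, the symbol shape gives the array number, and black bars give the mean and SD of 3 arrays. The groups overlap in all panels except *Tapbp*, which was lower with PTH, and *H2-T10*, which was higher, and neither passed the adjusted test.

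The brightest probes of the classical heavy chains and of the light chain differed little between groups. *H2-K1* read 10.04, 10.06 and 10.35 in controls and 10.11, 10.25 and 10.39 with PTH. *H2-D1* read 10.52, 10.69 and 10.99 in controls and 10.67, 10.78 and 10.85 with PTH. In both genes the array numbered 3 was the highest of its group and the groups overlapped. The change was 0.10 with a 95% interval from -0.23 to 0.44 for *H2-K1* and 0.034 with an interval from -0.32 to 0.39 for *H2-D1*, so that both lay within a fold of 1.5. A second *H2-K1* probe, above background on 5 arrays, read 4.64, 5.77 and 5.24 in controls and 5.75, 5.52 and 5.61 with PTH. Its controls spread widely and enclosed the PTH arrays, and the change was 0.41 with an interval from -0.20 to 1.02, which reaches beyond a fold of 1.5. *H2-L* is absent from the b haplotype and from the RefSeq table, yet both of its probes were above background on all arrays, at 11.47 ± 0.18 in controls and 11.41 ± 0.17 with PTH (SD, n = 3) for the brighter one. *B2m* read 13.30, 13.39 and 13.21 in controls and 13.37, 13.62 and 13.44 with PTH, and a second probe 13.24, 13.36 and 13.34 against 13.39, 13.35 and 13.42. The groups overlapped for both, and the changes were 0.18 (95% interval -0.12 to 0.47) and 0.071.

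The peptide loading genes gave mixed values. *Tap1* read 5.48, 5.07 and 5.89 in controls and 5.38, 5.44 and 5.43 with PTH, and *Tap2* read 7.94, 7.75 and 8.35 in controls and 8.19, 7.89 and 8.35 with PTH. The control arrays spread more widely than the PTH arrays in both genes and enclosed all of them, with changes of -0.062 ± 0.20 and 0.13 ± 0.19 (SE). The brighter *Tapbp* probe read 7.42, 7.27 and 7.05 in controls and 6.57, 6.84 and 6.05 with PTH. Every PTH array was lower, and this was the most negative change among the member genes, -0.76 with a 95% interval from -1.26 to -0.27, a limma unadjusted p of 0.0074 and an adjusted p of 0.150. The second *Tapbp* probe did not share it. It read 6.11, 6.08 and 6.04 in controls and 5.89, 6.84 and 5.99 with PTH, where Pth replicate 2 stood above the other arrays and the change was 0.16 with an adjusted p of 0.825. Without background correction the brighter probe reached an adjusted p of 0.0287, with a change of -0.41 that is under a fold of 1.5.

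Among the nonclassical class I genes, 4 of the 5 T symbols tested, 2 of which name *H2-T22*, and 3 of the 6 Q genes tested had a higher PTH mean. *H2-T22* encodes a ligand of gamma-delta T cells, and *H2-T10*, its close relative, is listed in RefSeq as a transcribed pseudogene. *H2-T10* read 6.32, 6.08 and 6.40 in controls and 6.65, 6.41 and 6.84 with PTH, without overlap, a change of 0.37 ± 0.16 (SE) with a limma unadjusted p of 0.0489 and an adjusted p of 0.338. *H2-T22* differed by 0.38 ± 0.23 (SE), the probe listed as *H2-T17* by 0.20 and *H2-T9* by 0.068. *H2-T23* (Qa-1), a ligand of NK cell receptors, differed by -0.12, with all 3 of its probes lower by mean, although the sign of the brightest turned under median scaling. Of 6 Q genes tested, *H2-Q1* differed by 0.12, *H2-Q5* by 0.036 and *H2-Q6* by 0.16. *H2-Q2* differed by -0.21, *H2-Q8* by -0.34 and *H2-Q7* by -0.26. *H2-Q7* encodes Qa-2, and its brighter probe read 8.32, 8.48 and 8.46 in controls and 8.13, 8.20 and 8.16 with PTH, without overlap and with a limma unadjusted p of 0.0617 and an adjusted p of 0.373. The value for *H2-Q8* rested largely on Pth replicate 2, which read 5.23 where the other PTH arrays read 6.19 and 6.14, and without it the change was -0.028. A second *H2-Q8* probe, above background on all 6 arrays, differed by -0.0039 with a limma adjusted p of 0.994.

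Of the M series, 3 of 11 genes could be tested. *H2-M3*, which presents bacterial formylated peptides, differed by 0.076 and *H2-M9* by -0.37, with overlapping groups. The brighter *H2-M2* probe was below background in every control and above it with PTH in all 3 arrays, so that it entered the test only through the group in which it was high. It read 4.81, 4.41 and 4.95 in controls and 5.98, 5.39 and 5.38 with PTH, which corresponds to at least 1.45-fold higher with PTH against the lowest signal above background on the control arrays, with a limma adjusted p of 0.114. The signal stayed close to that floor also with PTH. A second *H2-M2* probe was above background on no array, at 4.74 ± 0.21 in controls and 4.55 ± 0.17 with PTH (SD, n = 3). The remaining 15 class I genes could not be tested. *H2-Bl*, *H2-M10.2*, *H2-M10.3*, *H2-M10.4*, *H2-M10.5*, *H2-M11* and *H2-Q10* were above background on no array, nor was the probe listed as *H2-T3*, and *H2-M1*, *H2-M10.1*, *H2-M10.6*, *H2-D4*, *H2-T18* and *H2-T24* were above it on 1 or 2 arrays, as was the probe of the same *H2-T3* gene that is listed as *H2-Tw3*, on 1 control array. The M10 genes are known from the vomeronasal organ and *H2-Q10* from the liver. Of the symbols in neither class, *H2-Ke6* differed by 0.071 and *H2-gs17* by 0.15, and *H2-Bf* was above background on 1 array.

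**Figure D3:**
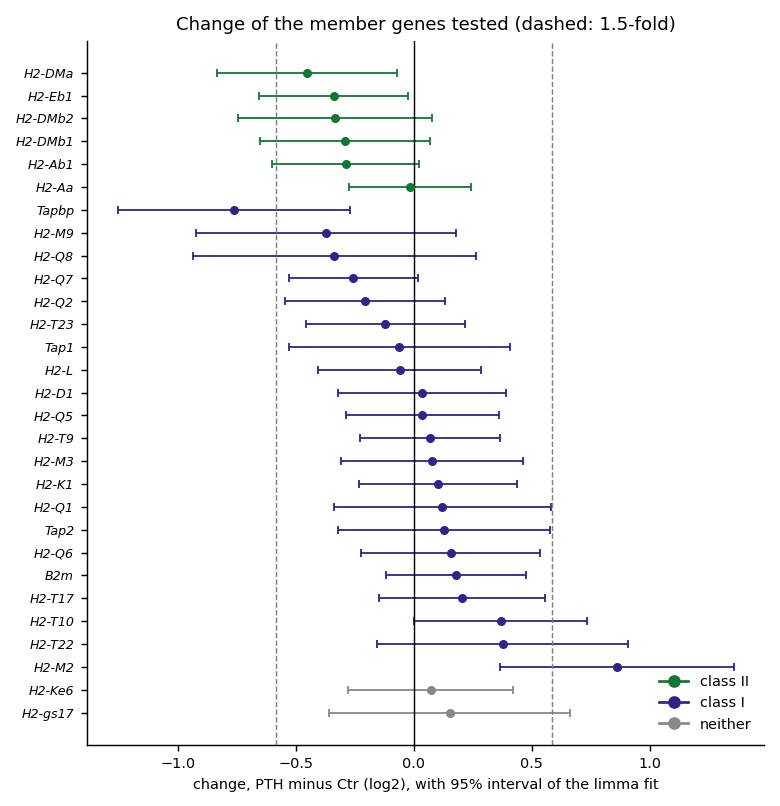
Change with PTH (log2, PTH minus control) and its 95% interval in the limma fit for the 29 member genes tested, n = 3 arrays a group. Green marks class II, blue class I and grey the symbols in neither class, and dashed lines mark a fold of 1.5. All 6 class II genes lie left of 0 (*H2-Aa* at -0.016, and right of 0 under median scaling), while class I genes spread on both sides from *Tapbp* at -0.76 to *H2-M2* at 0.86.

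Averaged over the tested genes of a class, the arrays separated for class II and not for class I. The class II mean was 7.96, 7.74 and 7.77 in controls and 7.53, 7.61 and 7.47 with PTH. The lowest control array thus stood above the highest PTH array, and the group means differed by -0.29. The class I mean was 7.84, 7.70 and 7.94 in controls and 7.88, 7.80 and 7.88 with PTH, which overlapped fully and differed by 0.025. The class I mean minus the class II mean was 0.0019 ± 0.15 in controls and 0.31 ± 0.11 with PTH (SD, n = 3). These averages are a description of genes chosen with earlier results known, and no test of the difference between the classes was made.

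Some class I genes were highest on the array numbered 3 in both groups. Their probes may share RNA, so they are not independent counts. *H2-K1*, *H2-D1* and *H2-L* were each highest on the array numbered 3 in both groups, as were 8 of the 21 class I genes tested, or 38.1%, beside 16.03% of all genes. None of the 6 class II genes had this order. The arrays numbered 3 also had the largest share of probes above background in each group, 38.4% in both, and the part of this in the class I values was not tested. With a term for these arrays, or without them, no member gene was called. The term is balanced over the groups and cannot move a change. Without these arrays the median class II change was -0.31.

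**Figure D4:**
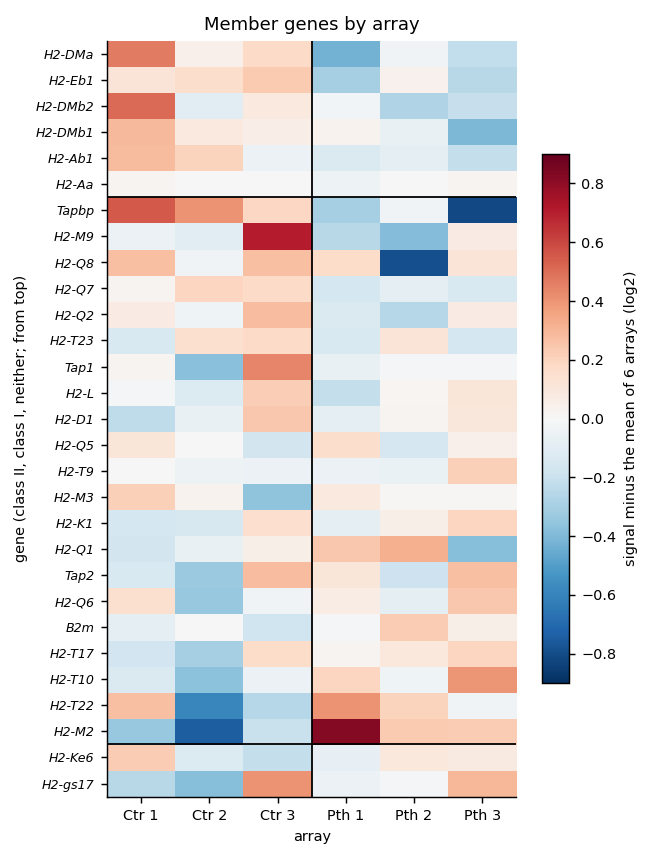
Normalized log2 signal of each tested member gene on each array after subtraction of its mean over the 6 arrays, with class II above the first black line, class I below it and the symbols in neither class at the bottom; red is above and blue below the gene's mean. Class II genes are mostly red on the control side and blue on the PTH side, except *H2-Aa*, which hardly varies and turned sign under median scaling. *H2-K1*, *H2-D1* and *H2-L* are reddest on array 3 of both groups.

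A further 48 genes act with the MHC in antigen presentation, and 41 of them could be tested. None was called by limma, 5 were higher and 4 lower at an unadjusted p under 0.05 (beside 7.51% and 7.38% of all genes), and their median change was 0.077. The 5 genes of the immunoproteasome, which cuts peptides for class I, had a median change of 0.10 and none reached an unadjusted p under 0.05, nor did the 3 constitutive proteasome subunits or the 3 tested genes for trimming and loading. In the class II compartment, *Ifi30*, the lysosomal thiol reductase that unfolds antigens, had the most positive change of the list. It read 8.75, 8.47 and 9.12 in controls and 9.29, 9.61 and 9.65 with PTH, all PTH arrays above all controls, with a change of 0.74 ± 0.19 (SE) and a limma adjusted p of 0.129. In the same compartment *Lgmn*, an endosomal protease, read 11.34, 11.45 and 11.34 in controls and 10.90, 11.04 and 10.81 with PTH, a change of -0.46 with an adjusted p of 0.134. *Cd274*, the inhibitory ligand PD-L1, had the next most positive change, from 6.49 ± 0.28 to 7.16 ± 0.26 (SD, n = 3), with a limma adjusted p of 0.168. The lipid-presenting *Cd1d1* differed by 0.59 with an adjusted p of 0.111. Single settings called 1 gene, *Ifi30* without background correction or with an offset of 50 and *Cd1d1* under the stricter detection filter.

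Among the regulators of MHC genes, the values went in both directions. *Nlrc5*, the class I counterpart of *Ciita*, had the most negative change of the list, from 6.02, 5.77 and 5.50 in controls to 4.80, 5.36 and 5.53 with PTH. Pth replicate 3 lay among the controls, the change was -0.54 ± 0.22 (SE), and the limma adjusted p was 0.318. *Irf8*, a transcription factor of macrophages and dendritic cells, read 6.43, 6.99 and 6.78 in controls and 6.10, 6.25 and 6.37 with PTH, without overlap, a change of -0.49 ± 0.17 (SE) with a limma adjusted p of 0.235. *Lgmn*, *Cd1d1* and the next 3 genes are named after their values were seen, as those with an unadjusted p under 0.05. *Spi1* (PU.1), a myeloid transcription factor, differed by 0.52, *Irf1*, which interferon induces, by 0.32, and the kinase gene *Jak2*, which acts below the interferon-gamma receptor, by -0.29. *Rfx5*, whose product binds class II promoters, was above background on no array.

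**Figure D5:**
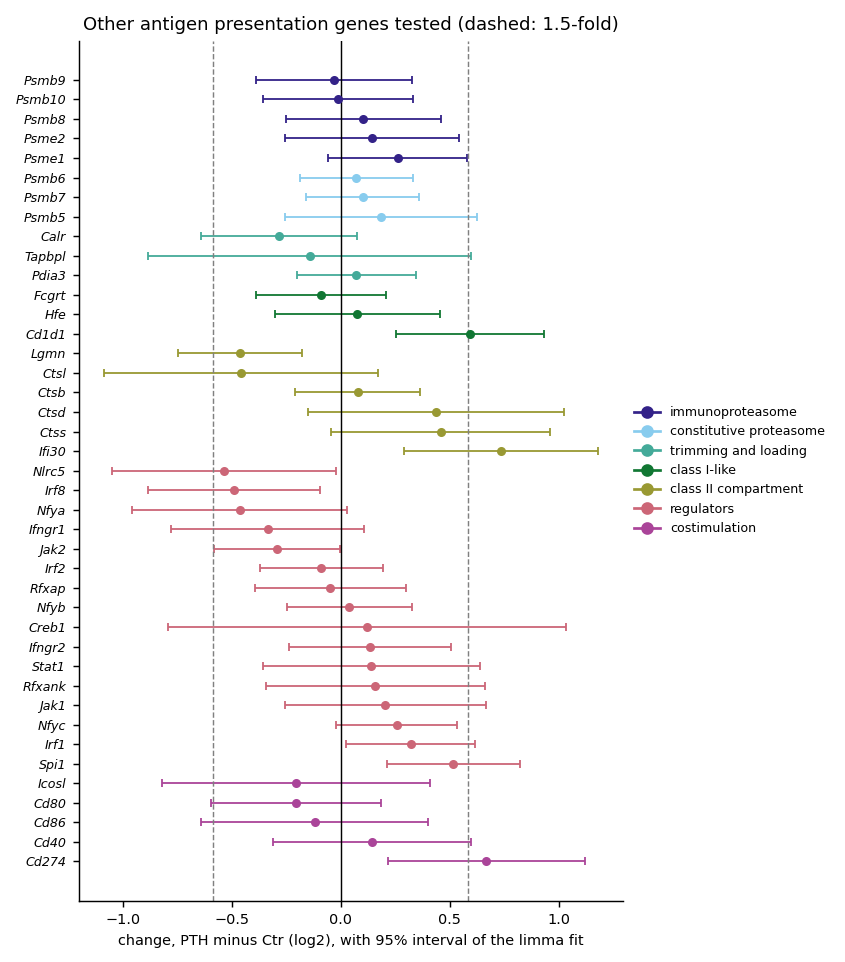
Change with PTH (log2, PTH minus control) and its 95% interval in the limma fit for the 41 other antigen presentation genes tested, n = 3 arrays a group, coloured by their role; dashed lines mark a fold of 1.5. *Ifi30*, *Cd274*, *Cd1d1* and *Spi1* lie to the right of 0 with their whole interval and *Nlrc5*, *Irf8* and *Lgmn* to the left, while the immunoproteasome genes lie near 0.

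Markers of the cells that carry class II were read on the same arrays. Of 14 macrophage markers 11 were tested, 9 had a lower PTH mean (beside 49.2% of all genes), and none was called by limma. At an unadjusted limma p under 0.05, 5 were lower (beside 7.38% of all genes) and 1 was higher (*Cd14*, 0.39, beside 7.51%). Those 5 were the complement genes *C1qa* (-0.74), *C1qb* (-0.72) and *C1qc* (-0.58), the mannose receptor *Mrc1* (-0.80) and the Fc receptor *Fcgr1* (-0.43), while *Csf1r* (-0.036) and *Cd68* (-0.021) differed little. The summed linear signal of all 14 macrophage markers, untested ones included, ranged from 9065 to 9347 in controls and from 7504 to 7710 with PTH. Bright genes weigh most in this sum, so it does not stand for the whole list. *C1qb* went from 11.08 in controls to 10.36 with PTH and *C1qc* from 10.35 to 9.77. The likewise bright *Cd68* read 11.04 and 11.02 and *Mpeg1* 10.19 and 10.09, and *Cd14* and *Vcam1* (0.088) had a higher PTH mean. *Cd163* and *Msr1* were above background on no array. Of 11 dendritic cell markers 4 were tested and none was called, with *Itgax*, *Flt3*, *Cd209a*, *Xcr1* and *Zbtb46* above background on no array. The summed signal of all 11 ranged from 335 to 356 in controls and from 313 to 323 with PTH. Most of these markers lay near background, and the sum includes *Batf3* (5.53 in controls, 4.78 with PTH). It therefore cannot show a change in dendritic cells. Of the 4 tested, *Siglech* (0.075) and *Cd83* (0.20) had a higher PTH mean, and *Clec10a* (-0.24) and *Batf3* a lower one. *Batf3* was above background in all controls and below it in all PTH arrays, so that it entered the test only through the group in which it was high, and it was at least 1.39-fold lower with PTH, with a limma adjusted p of 0.0866.

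Of 13 B lymphocyte markers on the array 6 were tested, and *Cd79a*, *Ms4a1*, *Pax5* and *Cr2* were among those above background on no array. The summed signal of all 13 overlapped, from 502 to 514 in controls and from 469 to 554 with PTH, and the 6 tested had 3 higher and 3 lower PTH means. The pre-B cell gene *Igll1*, above background on 1 control array and all 3 PTH arrays, was called higher (change 0.81, limma adjusted p 0.0436). *Vpreb1* (0.60) was higher, and *Blnk* (-0.69) and the pre-B cell gene *Vpreb3* (-0.34) lower, at an unadjusted p under 0.05 alone. *Cd3e*, *Cd3d*, *Cd3g*, *Cd4* and *Cd8a* of the T lymphocytes were above background on no array. *Cd8b1*, listed as *Cd8b*, was above it on all arrays, at 10.87 ± 0.20 in controls and 10.76 ± 0.18 with PTH (SD, n = 3). *Lck* (0.29) and *Cd5* (-0.22) were also tested, and no T lymphocyte marker was called. Neutrophils, which lack class II in the resting state, had 5 of 8 tested markers called lower, with a summed signal of all 10 from 53730 to 54648 in controls and from 34601 to 39178 with PTH. Osteoclast markers moved the other way, with 3 of 5 tested called higher, and 3 of 11 tested osteocyte and osteoblast markers were called lower. Beside these counts, 1.73% of all genes tested were called in either direction. None of 7 endothelial markers was called. The part of any of these cells in the MHC values was not tested.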

How the data were processed

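RNA of 6 bone preparations, 3 Ctr and 3 Pth, was hybridized to an Illumina mouse array, and groups were taken from the sample labels. The authors deposited linear signal intensities without normalization, together with detection p-values that the array software computed (GenomeStudio in the submitters' processing notes; version not given in the sources used here). The methods state quantile normalization and a differential score of that software, which was not used here, and limma took its place.

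From the deposited intensities, normexp background correction (informed by the detection p-values), quantile normalization and log2 values with an added offset of 16 were obtained with neqc (limma 3.58.1, R 4.3.3; tables and figures with Python 3.11.15). Probes with detection p under 0.05 on at least 3 of 6 arrays (16214 of 45281) were tested by lmFit and eBayes, adjusted by Benjamini-Hochberg over all of them. The number of arrays limits the precision. A 3 against 3 permutation cannot go below p = 0.10, so limma's p is given. All member genes with a tested probe are named; of other antigen presentation genes, those called and the 2 most positive and 2 most negative changes, with additions marked as such. Members, lists and markers were chosen with earlier results of these data known. The procedure was tested on simulated data. Alternatives were other background corrections, scalings and filters, a replicate block, each array left out, the methods' t-test, and, chosen after seeing the data, a term for or the removal of the arrays numbered 3. No pair of arrays shared more than 1 identical signal, and each counts as 1 replicate. Promoter sequences are RefSeq's for GRCm38.p6, found for 30 of the member genes; probe and protein sequences were not used here.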

Additional observations from a re-analysis of the deposited data

How the results depend on the processing

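No member gene or probe was called under any alternative with an adjusted p and the fold minimum. The methods' t-test at an unadjusted p gave 2 member genes, 2 probes and 2 class I genes, and 3 other antigen presentation genes (*Cd1d1*, *Ifi30* and *Cd274*). Of the other antigen presentation genes, 1 was called under quantile normalization without background correction, 1 with an offset of 50 and 1 under the stricter detection filter (p under 0.01 on all 6 arrays). The median class II change was -0.15 without the detection filter, which by construction adds 4 genes near background. Leaving out 1 array at a time left all counts at 0, with a class I median between 0.021 and 0.13 and a class II median between -0.35 and -0.22. Of 399 single-gene values under an alternative, 17 had the opposite sign. Those under the replicate block or the term for the arrays numbered 3 could not, by construction. Under median scaling *H2-T23* gave 0.057, *H2-L* 0.070 and *H2-Aa* 0.12. With 1 array left out, the changes ranged from -0.087 to 0.20 for *H2-M3*, -0.0083 to 0.34 for *H2-Q1*, -0.037 to 0.12 for *H2-Q5*, -0.021 to 0.11 for *H2-T9*, -0.073 to 0.16 for *H2-D1*, -0.14 to 0.036 for *H2-L*, -0.27 to 0.14 for *Tap1*, -0.0070 to 0.30 for *Tap2*, -0.033 to 0.0027 for *H2-Aa*, -0.018 to 0.20 for *H2-Ke6* and -0.00065 to 0.39 for *H2-gs17*; the cause was not tested. Arrays numbered 1 and those numbered 2 deviated together only weakly across groups (correlations 0.067 and 0.064), and those numbered 3 more so (0.27). Over probes, Ctr 3 and Pth 3 correlated at r = 0.984, where the other pairs across groups lay between 0.975 and 0.979. What the arrays numbered 3 share was not tested, and the number was not taken as a pairing in the main fit. With the replicate block all counts of called members stayed at 0 and no call changed. The block is balanced over the groups, so it cannot move a change. The class I median of 0.068 and the class II median of -0.31 were therefore fixed in advance. A slide block was not run, because no slide is given. Signals near the background floor, such as *H2-M2*, *H2-Oa* and *C2ta*, limit what could be tested.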
